A study of Mus musculus with 12 samples.

Results

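Transcripts of 7 transcription factor genes were followed in 12 mouse pre-B cell lines, of which 6 carried an empty vector (EV) and 6 were transformed by BCR-ABL1. The genes were Irf4, Irf8, Irf5 and Irf2 of the interferon regulatory factors (IRFs), Spi1 and Spib of the PU.1 family, and Mef2c. They were chosen by symbol from a list of 8 names, of which Sfpi1 is the older symbol of Spi1, and each matched 1 of the 51826 Ensembl genes counted. All 7 passed the filter on low counts, which kept 15038 genes.

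The lines came from the bone marrow of 2 C57BL/6 mice and are labelled Pro-/pre B cells. Marrow was cultured for 7 days with interleukin 7 (IL7), the cytokine on which pre-B cells depend in culture, and cells of each mouse then gave 3 lines with the EV retrovirus and 3 lines with BCR-ABL1, a kinase fused by the Philadelphia translocation. After another 48 h with IL7, BCR-ABL1 lines were kept for 1 week without the cytokine, while EV lines stayed in IL7 and were sorted for the vector's green fluorescent protein. BCR-ABL1, the lack of IL7 and the lack of a sort therefore coincided and cannot be told apart, and a difference between conditions means all of them. Lines are named by mouse and letter, so that EV 2C is an EV line of mouse 2. Because 3 lines of a condition share a mouse, p-values measure the spread between lines and not between many animals.

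IRFs bind DNA through a shared domain with a conserved set of tryptophans and recognise GAAA repeats. IRF4 and IRF8 bind such repeats weakly on their own and are recruited by the ETS factors PU.1 (gene Spi1) and Spi-B (gene Spib) to joint motifs known as EICE, which lie in immunoglobulin light chain enhancers. In pre-B cells, IRF4 and IRF8 are known to promote light chain rearrangement and exit from the cell cycle as IL7 signaling falls. IRF2 opposes IRF1 at interferon response genes, IRF5 acts downstream of Toll-like receptors, and MEF2C is a MADS box factor that acts with signals from the pre-B cell receptor.

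The upstream sequences of the 4 IRF genes are shown because 3 of them had lower levels in every BCR-ABL1 line and the fourth, Irf5, was the gene whose change differed most between mice. Each run is the 250 bases before the start of a RefSeq transcript on GRCm38.p6, read on the strand of the gene, which is the plus strand for all 4. Capitals mark matches, searched on both strands, to an EICE (GGAANNGAA), an IRF repeat (GAAANNGAA) or a TATA motif (TATAAA).
Irf4, chr13:30748983-30749232: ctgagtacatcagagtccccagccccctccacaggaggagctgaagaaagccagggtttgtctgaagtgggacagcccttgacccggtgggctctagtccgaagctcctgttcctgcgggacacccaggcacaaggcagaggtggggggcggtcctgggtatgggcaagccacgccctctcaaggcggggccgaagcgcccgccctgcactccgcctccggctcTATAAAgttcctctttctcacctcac
Irf8, chr8:120736108-120736357: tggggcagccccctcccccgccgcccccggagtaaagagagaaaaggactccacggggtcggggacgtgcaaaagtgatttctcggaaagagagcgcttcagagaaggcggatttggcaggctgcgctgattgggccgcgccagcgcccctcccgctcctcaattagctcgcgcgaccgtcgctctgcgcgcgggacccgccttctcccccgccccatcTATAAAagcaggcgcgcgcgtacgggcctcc
Irf2, chr8:46739495-46739744: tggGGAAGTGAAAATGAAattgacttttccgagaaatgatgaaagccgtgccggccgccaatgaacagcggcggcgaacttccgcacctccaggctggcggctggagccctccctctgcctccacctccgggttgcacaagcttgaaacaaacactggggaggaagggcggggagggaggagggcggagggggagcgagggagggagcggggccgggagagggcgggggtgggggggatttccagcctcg
Irf5, chr6:29526375-29526624: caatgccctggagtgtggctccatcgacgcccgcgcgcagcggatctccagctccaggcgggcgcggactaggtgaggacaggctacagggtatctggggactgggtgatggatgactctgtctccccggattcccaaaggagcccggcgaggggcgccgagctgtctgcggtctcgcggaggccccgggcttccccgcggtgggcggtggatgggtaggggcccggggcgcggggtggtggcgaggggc
Irf4 carried a TATA motif at positions -26 to -21 and Irf8 at -31 to -26, counted back from the transcript start, and 12.4% of 32851 RefSeq promoter windows of this length held that motif. The Irf2 sequence held an EICE at -247 to -239 and an IRF repeat at -241 to -233, which overlap and appear as 1 run of capitals. An EICE was found in 6.99% of all windows and an IRF repeat in 7.13%. The Irf5 window matched none of these letters. Irf8 had a second RefSeq start and Mef2c had 3, and windows of Mef2c and Spib held neither an EICE nor an IRF repeat. The matches describe letters only and no binding was measured.

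Reads on genes summed to between 34791011 and 66011225 per line. Levels are given as CPM, counts scaled to a common library size, after TMM normalization, with scaling factors of 0.94 to 1.09. Of 10 B lineage markers all were tested, 1 was called higher and 1 lower in BCR-ABL1 lines, beside 5.99% and 6.49% of all genes. Pax5, at 309.7 to 569 CPM, and Ebf1, at 317 to 544 CPM over all lines, were high in both conditions. Dntt, the terminal transferase of early B cells, had 0.101 to 18.5 CPM over EV lines and 31.6 to 179 CPM over BCR-ABL1 lines (FDR = 0.0396 by glmTreat). Its call was lost with mouse or line pair as replicate block, in mouse 2 lines alone and without any of 8 of the 12 lines. The change of Dntt differed between the mice by -7.35 (interaction FDR = 0.00427). Cd22 was the marker called lower. Of 15 myeloid markers, which bear on PU.1, 1 passed the filter, Cd68, and the list summed to between 4.35 and 6.82 CPM in EV lines and between 5.08 and 7.73 CPM in BCR-ABL1 lines. Csf1r, Csf3r, Elane, Cd14 and S100a8 did not exceed 0.184 CPM in any line. Among the others below the filter, Lyz2 and Ly6g had means of 0.0478 and 0.0469 CPM in EV and 0.226 and 0.2905 CPM in BCR-ABL1 lines. Adgre1 and Mpo fell, from 0.266 and 0.141 CPM to 0.00886 and 0.0256 CPM. Without a gene filter 1 myeloid marker was called higher and 2 lower, beside 1081 and 999 of 40750 genes. DESeq2 and mouse 2 lines alone each gave 1 higher and 1 lower. Beside these stood 960 higher and 914 lower of 20930 genes in DESeq2, and 614 and 408 of 15400 in mouse 2 lines. Mouse 1 lines alone gave 1 higher, beside 2512 of 15395 genes. Among the T and NK cell markers Trac, the constant part of the T cell receptor alpha locus, was lower in BCR-ABL1 lines (9.99 to 41.1 CPM against 0.213 to 1.34 CPM), and so were Cd3d (0.234 to 0.644 CPM against 0.0304 to 0.116 CPM, FDR = 0.000511) and, below the filter, Cd3g (0.113 to 0.215 CPM against at most 0.017 CPM). Klrb1c, the other tested marker of this list, went the other way (0.0289 to 1.07 CPM against 0.353 to 3.68 CPM) but was not called. A log2 change of 1.45 had an FDR of 0.497 by glmTreat, and it differed between the mice by -5.94 (interaction FDR = 0.000288). Cd3e did not exceed 0.123 CPM. The T and NK list summed to between 11.2 and 42.0 CPM in EV lines and between 0.664 and 4.77 CPM in BCR-ABL1 lines. Of 9 dendritic cell markers, which bear on Irf8 and Spib, 2 were tested. Zbtb46 was lower (0.207 to 0.889 CPM against 0.0627 to 0.135 CPM, FDR = 0.0139) and Flt3, a receptor also found on early lymphoid progenitors, was higher (0.159 to 0.705 CPM against 4.61 to 7.00 CPM, FDR = 2.86e-05). Siglech and Ccr9 reached 0.505 and 0.276 CPM in EV lines and at most 0.0304 CPM each in BCR-ABL1 lines. The dendritic list summed to between 1.04 and 3.56 CPM in EV lines and between 4.84 and 7.31 CPM in BCR-ABL1 lines. The part of these markers in the results was not tested. For each of the 7 genes the 3 EV lines of mouse 2 differed more among themselves than the 3 lines of any other mouse and condition. For Irf4 the coefficient of variation was 21.0% in EV lines of mouse 2 and 0.80%, 0.50% and 1.38% in EV lines of mouse 1 and BCR-ABL1 lines of mouse 1 and 2. Values are therefore also given per mouse.

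IRF4 and IRF8, the partners of PU.1 in B cells, were both lower in every BCR-ABL1 line than in any EV line, by about the same factor. The fall was 1.71-fold for Irf4 and 1.72-fold for Irf8. It was past the test against no change, but not past the stricter test that the change exceeds 1.5-fold, which was the main test.
Irf4 (chromosome 13, 30749226 to 30766976 on GRCm38) had 371 CPM in the lowest, 382 CPM in the median and 595 CPM in the highest EV line. The lowest, median and highest BCR-ABL1 lines had 249.6, 254 and 256 CPM. The groups did not overlap, and the 6 BCR-ABL1 lines of both mice lay within a range far narrower than that of the EV lines. Their mean was 253 ± 2.53 CPM (SD, n = 6), against 432 ± 92.0 CPM (SD, n = 6) in EV lines. The log2 fold change was -0.77 (SE 0.12) with an adjusted p (FDR) of 0.119 by edgeR's glmTreat against 1.5-fold and of 0.000287 by the quasi-likelihood test against no change. EV lines 2A and 2B, with 490.5 and 595 CPM, were the highest, while EV 2C, with 389 CPM, was close to the lines of mouse 1. Within mouse 1 alone Irf4 changed by -0.54 on the log2 scale (FDR = 1 by glmTreat) and within mouse 2 by -0.95 (FDR = 0.102).
Irf8 (chromosome 8, 120736358 to 120756694) had 225, 249.7 and 424 CPM in the lowest, median and highest EV line and 146, 169.8 and 212 CPM in BCR-ABL1 lines. Again EV lines 2A and 2B stood above the rest, at 399 and 424 CPM, and the groups did not overlap. EV lines averaged 296 ± 91.3 CPM and BCR-ABL1 lines 172 ± 24.8 CPM (SD, n = 6 each). A log2 fold change of -0.78 (SE 0.19) had an FDR of 0.241 against 1.5-fold and 0.00417 against no change by edgeR. Within mouse 1 alone Irf8 changed by -0.32 on the log2 scale and within mouse 2 by -1.18.
In an exact two-sided permutation test over the 924 labelings of the lines, both genes had p = 0.00216, the smallest p possible. In bulk RNA, fewer cells with a transcript and less of it per cell cannot be told apart.

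**Figure D1:**
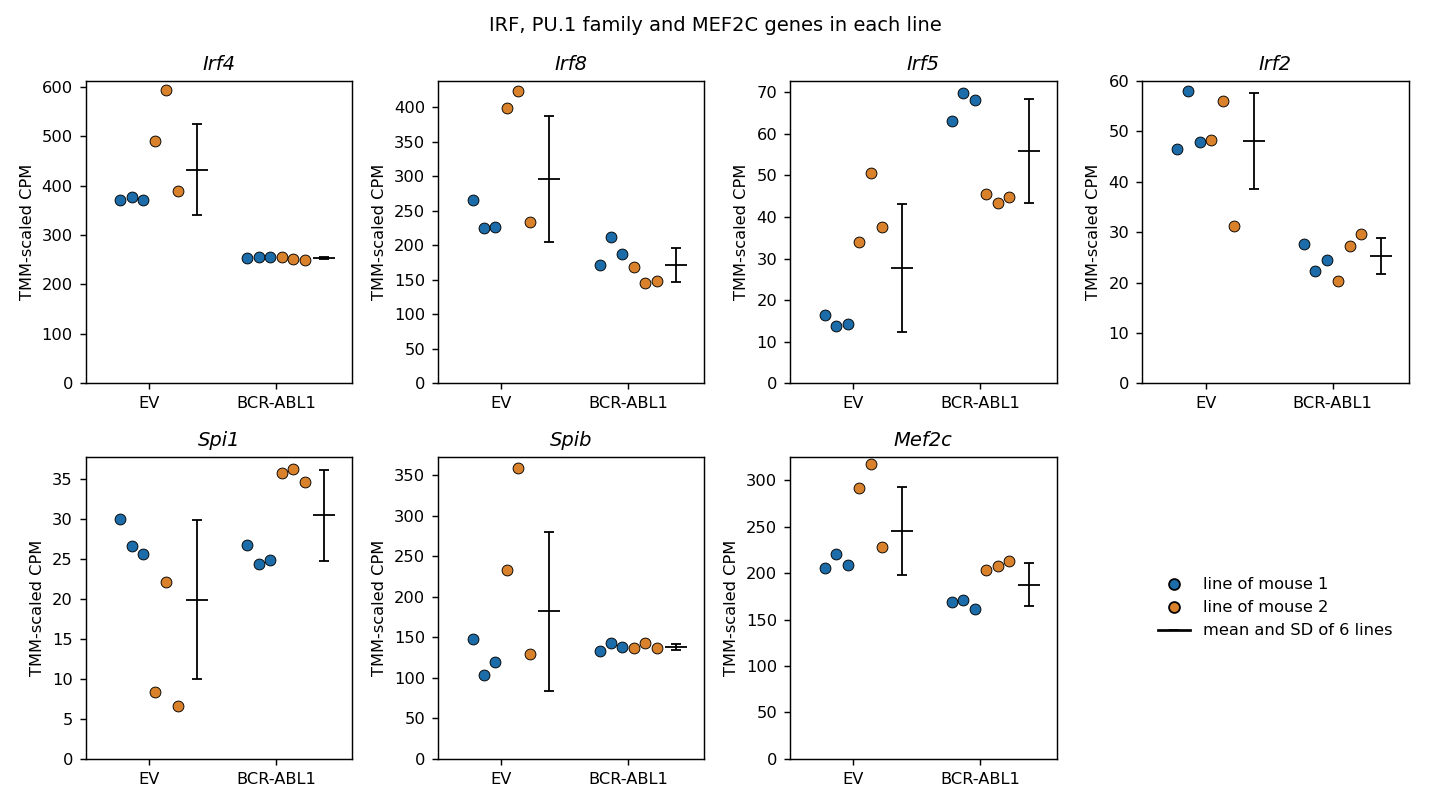
Level of each of the 7 genes in TMM-scaled CPM (vertical axes, from 0) in the 6 EV and 6 BCR-ABL1 lines, with each point a line coloured by mouse and the bar the mean and SD of 6 lines. Irf4, Irf8 and Irf2 show no overlap between the conditions, and EV lines 2A and 2B, at 490.5 and 595 CPM for Irf4, are the 2 highest for Irf4, Irf8, Spib and Mef2c.

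The ratio of Irf4 to Irf8 had nearly the same mean in both conditions over all lines, with shifts of opposite sign in the mice. Per length of exon, Irf4 exceeded Irf8 by 1.10 ± 0.18 (SD, n = 6) on the log2 scale in EV lines and by 1.10 ± 0.19 (SD, n = 6) in BCR-ABL1 lines. The difference of -0.01 was smaller than the spread between lines (exact permutation test, p = 0.957). In mouse 1 the log2 ratio was 1.17 ± 0.14 in EV and 0.95 ± 0.15 in BCR-ABL1 lines, and in mouse 2 it was 1.03 ± 0.22 and 1.24 ± 0.10 (SD, n = 3 each), with overlapping ranges in both mice.

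Irf2 and Irf5 moved in opposite directions. Irf2 was lower in every BCR-ABL1 line, by 1.90-fold, and was the only one of the 7 genes past the 1.5-fold test. Irf5 was higher by 2.01-fold over all lines, with the conditions far apart in mouse 1 and overlapping in mouse 2.
Irf2 (chromosome 8, 46739732 to 46847458) had 31.2, 48.2 and 58.1 CPM in the lowest, median and highest EV line and 20.3, 25.9 and 29.7 CPM in BCR-ABL1 lines. The groups were separated by a small gap, between BCR-ABL1 2C and EV 2C, the lowest EV line. EV lines averaged 48.1 ± 9.5 CPM and BCR-ABL1 lines 25.3 ± 3.57 CPM (SD, n = 6 each). On the log2 scale the change was -0.93 (SE 0.16, FDR = 0.0362 by glmTreat, exact permutation p = 0.00216). The fall had a similar size in both mice, -1.03 in mouse 1 and -0.80 in mouse 2 on the log2 scale. The call was close to the threshold. It was lost when EV line 1A, 1B, 1C or 2B or BCR-ABL1 line 1B, 1C or 2A was left out, with an FDR of 0.0550 to 0.0790, and kept without each of the other 5 lines, with the lowest FDR, 0.00203, without EV 2C. It was also lost with line pair as replicate block (FDR = 0.0911) and in DESeq2 (adjusted p = 0.310), and the alternatives gave FDR values between 0.000354 and 0.403.
Irf5 (chromosome 6, 29526625 to 29541871) had 13.7, 25.1 and 50.7 CPM in the lowest, median and highest EV line and 43.3, 54.3 and 69.8 CPM in BCR-ABL1 lines. In mouse 1 the EV lines had 13.7 to 16.3 CPM and the BCR-ABL1 lines 63.1 to 69.8 CPM, far apart. In mouse 2 the EV lines had 33.9 to 50.7 CPM and the BCR-ABL1 lines 43.3 to 45.5 CPM, and these overlapped. Over all lines the log2 fold change was 1.01 (SE 0.36), with an FDR of 0.203 against 1.5-fold and 0.0242 against no change. Within mouse 1 it was 2.20 (FDR = 1.58e-08 by glmTreat) and within mouse 2 it was 0.14 (FDR = 1). The change differed between the mice by -2.06 on the log2 scale, mouse 2 minus mouse 1 (edgeR interaction of mouse and condition, FDR = 3.47e-05). Irf5 shares 411 exon bases with Tnpo3 on the opposite strand. The library kit keeps the strand, but the strand setting of the counting is not given in the sources used here. Tnpo3 changed by 0.24 on the log2 scale (FDR = 1) with an interaction of mouse and condition of 0.16 (FDR = 0.519).

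Of the PU.1 family, Spi1 was low and Spib abundant in these cells, and neither passed an edgeR test of the difference between conditions over all lines. The levels of Spi1 overlapped between the conditions in mouse 1 and were apart in mouse 2.
Spi1 (chromosome 2, 91082390 to 91115756), the gene of PU.1, had 6.64, 23.9 and 29.9 CPM in the lowest, median and highest EV line and 24.4, 30.7 and 36.3 CPM in BCR-ABL1 lines. The lines of mouse 1 were alike in both conditions, at 25.6 to 29.9 CPM with EV and 24.4 to 26.8 CPM with BCR-ABL1. In mouse 2 the EV lines spread from 6.64 CPM in 2C and 8.34 CPM in 2A to 22.1 CPM in 2B, and all lay below the BCR-ABL1 lines, at 34.6 to 36.3 CPM. The log2 fold change was 0.61 (SE 0.40, FDR = 0.748 against 1.5-fold and 0.15 against no change), or -0.10 in mouse 1 and 1.54 in mouse 2. The difference between the mice was 1.63 (interaction FDR = 0.0384). The permutation test over all lines gave p = 0.0476, and with labels exchanged only within a mouse, so that mouse was the replicate block, p = 0.09 (both exact and two-sided).
Spib (chromosome 7, 44525993 to 44532071, minus strand) had 104, 139 and 359 CPM in the lowest, median and highest EV line and 133, 138 and 143 CPM in BCR-ABL1 lines. The medians were nearly equal, and the conditions differed in spread, since the coefficient of variation was 53.7% in EV and 2.78% in BCR-ABL1 lines. EV 2B and 2A were again the highest, at 359 and 233 CPM. The log2 fold change was -0.40 (SE 0.28, FDR = 1 against 1.5-fold and 0.233 against no change, exact permutation p = 0.433). It was 0.17 in mouse 1 and -0.78 in mouse 2. Without EV 2B it was -0.09, and with line pair as replicate block -0.25.
Per length of exon, Spi1 was below Spib by a log2 ratio of -3.18 ± 1.24 (SD, n = 6) in EV and -2.12 ± 0.27 (SD, n = 6) in BCR-ABL1 lines. The difference of 1.06 was no larger than the spread between EV lines (exact permutation test, p = 0.11, and 0.221 adjusted over the 2 ratios compared). BCR-ABL1 minus EV, the log2 ratio differed by -0.28 in mouse 1 and by 2.41 in mouse 2, in each case without overlap of the 3 and 3 lines.

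Mef2c (chromosome 13, 83504034 to 83667080) had 206, 224 and 318 CPM in the lowest, median and highest EV line and 161, 187 and 214 CPM in BCR-ABL1 lines. The ranges overlapped across mice. Within each mouse, however, every BCR-ABL1 line lay below every EV line, at 161 to 171 against 206 to 220.5 CPM in mouse 1 and at 203 to 214 against 228 to 318 CPM in mouse 2. The log2 fold change was -0.39 (SE 0.13, FDR = 1 against 1.5-fold and 0.0228 against no change). It was -0.33 in mouse 1 and -0.41 in mouse 2, and the interaction was -0.08. The exact permutation test gave p = 0.0130, and p = 0.005 with labels exchanged within a mouse as the replicate block, the smallest value this block allows.

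**Figure D2:**
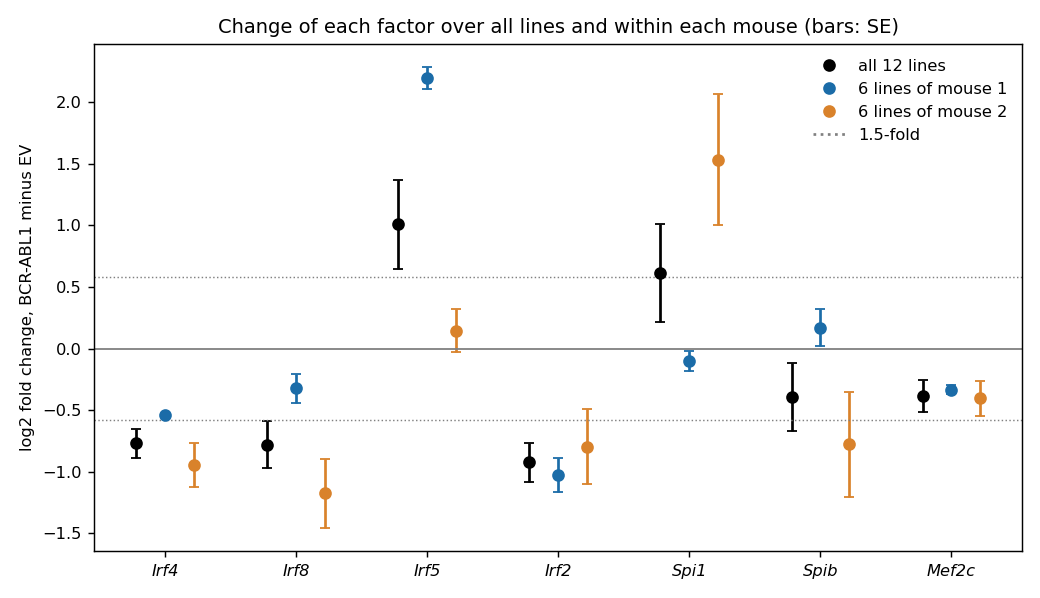
Log2 fold change of each gene, BCR-ABL1 minus EV (vertical axis), over all 12 lines and over the 6 lines of each mouse, with bars for the SE, taken from log2 CPM of the lines, and dotted lines at 1.5-fold. Irf2 and Mef2c lie at similar values in both mice, while Irf5 is at 2.20 in mouse 1 and 0.14 in mouse 2, and Spi1 at -0.10 and 1.54.

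Over the 7 genes, 0 were higher and 1 was lower past 1.5-fold. Over all tested genes 5.99% were called higher and 6.49% lower, and 1 call among 7 genes is no result about them as a group. Against no change, 1 was higher (Irf5) and 4 were lower (Irf4, Irf8, Irf2 and Mef2c), beside 22.5% higher and 25.9% lower over all genes. None of the 7 was higher and 3 were lower without overlap of the 6 and 6 lines, where 12.1% and 13.5% of all genes were. The change differed between mice for 3 of the 7, Irf8, Irf5 and Spi1, beside 16.9% of all genes. Their median log2 fold change was -0.40, and that of all tested genes was -0.02.
Only the difference of Irf5 between the mice was kept when any 1 of the 12 lines was left out, with an FDR of at most 0.000264. That of Irf8 was -0.86 (FDR = 0.0497) and was lost without each line except EV 2C, with an FDR of 0.0577 to 0.122. That of Spi1 was kept without EV 2B or EV 2C and lost without each of the other 10, with an FDR of 0.0662 to 0.0871. Without EV 2C the change also differed between mice for Irf4 (-0.55, FDR = 0.00204) and Spib (-1.25, FDR = 0.000810).

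Levels per kilobase of exon allow the genes to be set in order. In EV lines Irf4 was highest with 88.1 ± 18.8 CPM per kb, followed by Spib with 63.6 ± 34.1, Irf8 with 41.9 ± 12.9, Mef2c with 15.6 ± 3.00, Irf5 with 9.55 ± 5.28, Spi1 with 7.38 ± 3.68 and Irf2 with 6.50 ± 1.29 CPM per kb (SD, n = 6 each). Irf8 and Mef2c were the only neighbours in this order whose ranges over lines did not overlap.
In BCR-ABL1 lines the order was Irf4 with 51.7 ± 0.52 CPM per kb, Spib with 48.3 ± 1.34, Irf8 with 24.4 ± 3.51, Irf5 with 19.2 ± 4.30, Mef2c with 12.0 ± 1.47, Spi1 with 11.3 ± 2.1 and Irf2 with 3.42 ± 0.48 CPM per kb (SD, n = 6 each). Here Irf4 and Spib, Spib and Irf8, Irf5 and Mef2c, and Spi1 and Irf2 had ranges that did not overlap, while Irf8 and Irf5, and Mef2c and Spi1, overlapped. Irf5 thus stood above Mef2c in BCR-ABL1 lines and below it by the mean in EV lines. The length is that of all annotated exons of a gene, 15715 bases for Mef2c, which can exceed the length of its transcripts.

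**Figure D3:**
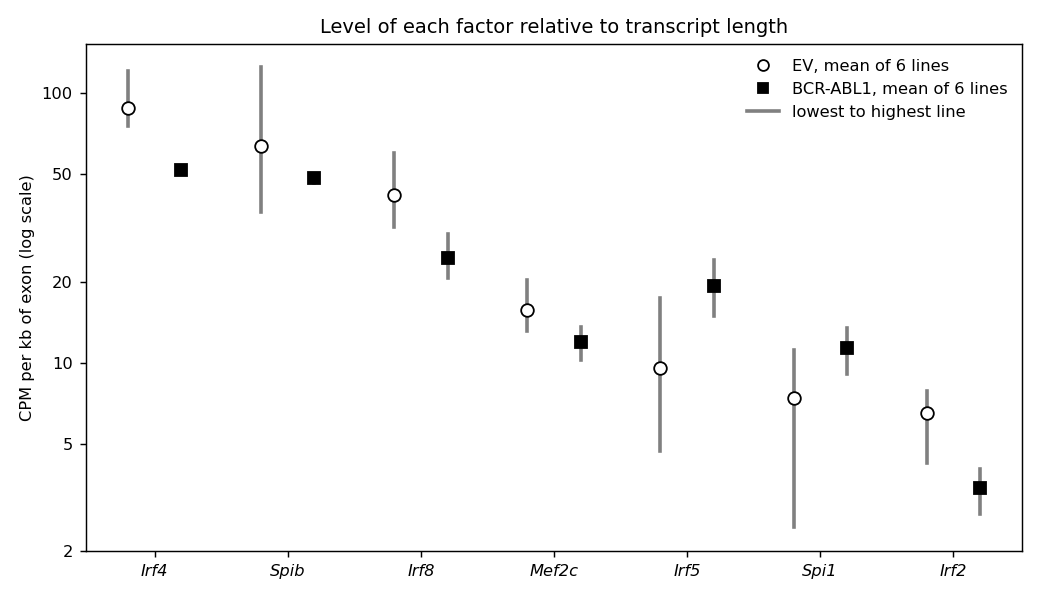
Mean level of each gene in CPM per kb of exon on a log axis in EV lines (open circles) and BCR-ABL1 lines (filled squares), with grey bars from the lowest to the highest of 6 lines and genes ordered by the EV mean. By the mean, Irf4, Spib and Irf8 lie above the other 4 genes in both conditions, and the grey bars of Irf4 and Spib are shortest in BCR-ABL1 lines.

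Of 8 further IRF and IRF2-binding protein genes 7 were tested, and 0 were called higher or lower past 1.5-fold, with a median log2 fold change of -0.39. Against no change 0 were higher and 4 of 7 lower, beside 22.5% and 25.9% of all genes. These were Irf1, the counterpart of IRF2, at -0.39, Irf3, a mediator of the type I interferon response, at -0.49, and the IRF2 corepressor genes Irf2bp1 at -0.54 and Irf2bp2 at -0.42. Irf7, a factor that amplifies the interferon response, was low, at 0.811 to 4.44 CPM over all lines, and its change differed between the mice by -2.11 (interaction FDR = 0.0292). The changes of Irf1 and Irf2bpl also differed, by -0.56 and -0.57 (interaction FDR = 0.0146 and 0.0471). For the other tested genes of the list the interaction FDR was at least 0.0841. In mouse 1 lines alone 1 gene of this list was called higher, beside 2512 of 15395 genes tested there. Of the 2 tested genes among Spic, Mef2a, Mef2b and Mef2d, Mef2d had a log2 fold change of -0.43 (FDR = 0.0165 against no change, and 1 against 1.5-fold) and Mef2a one of 0.02. Spic and Mef2b had no line above 0.123 CPM.

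Among 9 genes of IRF4 and IRF8 partners, 7 were tested, 1 was called higher and 1 lower, beside 5.99% and 6.49% of all genes. Batf, an AP-1 factor that binds together with IRF4, ranged from 1.05 to 8.47 CPM over EV lines and from 17.2 to 25.1 CPM over BCR-ABL1 lines. It changed by 2.24 on the log2 scale (SE 0.58, FDR = 0.0228 by glmTreat), and it differed between the mice (interaction -2.39). Ets1, an ETS factor of lymphocytes, fell from 592 to 693 CPM in EV lines to 208 to 298 CPM in BCR-ABL1 lines, with a log2 fold change of -1.37 (SE 0.11, FDR = 7.06e-05). Jun, an AP-1 subunit, had 1.13 to 23.6 CPM over EV lines and 36.5 to 55.2 CPM over BCR-ABL1 lines, without overlap (log2 fold change 2.09, SE 0.92, FDR = 0.148 against 1.5-fold and 0.0398 against no change), and it differed between the mice by -3.60 (interaction FDR = 2.24e-07). Tcf3, which encodes the E2A proteins, had a log2 fold change of -0.32. The median of the list was 0.27.

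Class IIa histone deacetylases bind MEF2 factors and repress their targets. Of 6 genes for these enzymes and for kinases of MEF2 factors, all were tested. In this list 0 were called higher and 2 lower, beside 5.99% and 6.49% of all genes. Hdac9 had 64.5 to 256 CPM over EV lines and 12.0 to 15.1 CPM over BCR-ABL1 lines (log2 fold change -3.33, SE 0.37, FDR = 0.000156). Hdac5 had 71.0 to 261 CPM over EV lines and 32.0 to 48.6 CPM over BCR-ABL1 lines (-2.0, SE 0.33, FDR = 0.00249). Hdac4 and Hdac7, of the same class, had log2 fold changes of 0.13 and 0.20, and the median of the list was -0.01.

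Genes known as targets of IRF4 and IRF8 in B lineage cells were mostly lower where they moved. Of 18 genes 17 were tested, 0 were called higher and 6 lower past 1.5-fold, beside 5.99% and 6.49% of all genes. The median of the list was -0.66. Against no change 1 was higher and 9 were lower, beside 22.5% and 25.9% of all genes. Bcl6, a transcriptional repressor of germinal centre and pre-B cells, changed by -4.08, and Prdm1, the plasma cell factor BLIMP1, by -3.15. Cd40, a costimulatory receptor, changed by -2.99 at a low level of 0.875 to 5.03 CPM with EV and 0.182 to 0.610 CPM with BCR-ABL1 lines. The change of Cd40 differed between the mice by -2.43 (interaction FDR = 0.00472). The light chain constant gene Iglc2 had 3.09 to 133 CPM over EV lines and 0.0415 to 0.424 CPM over BCR-ABL1 lines (log2 fold change -8.03, SE 1.06, FDR = 0.000815), and its reads could be shared with the similar Iglc1 and Iglc3. The change of Iglc2 differed between the mice by -5.84 (interaction FDR = 0.00135). For Bcl6, Prdm1, Igkc and Cxcr4 the interaction FDR was at least 0.19. Of the other 2 called genes, named after their values were seen, Igkc, the kappa constant gene, had 303 to 435 CPM over EV lines and 45.3 to 66.1 CPM over BCR-ABL1 lines (-2.75, SE 0.12, FDR = 2.70e-07), and Cxcr4, the receptor for CXCL12, changed by -1.08. The surrogate light chain genes Igll1, Vpreb1 and Vpreb2, which IRF4 and IRF8 repress, had log2 fold changes of 0.17, 0.35 and 0.73, none past the test, and differed between mice by -1.72, -1.96 and -3.52. In mouse 1 lines alone 5 genes of the list were called higher, beside 2512 of 15395 genes tested there.

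Of 15 genes known as targets of PU.1 or Spi-B in B cells, 14 were tested, with a median of -0.34. Among them 1 was called higher and 4 were lower, beside 5.99% and 6.49% of all genes. P2ry10, a receptor for lysophospholipids, rose from 5.28 to 12.0 CPM in EV to 76.2 to 93.7 CPM in BCR-ABL1 lines (log2 fold change 3.14, SE 0.25, FDR = 6.89e-06). Cd72, a coreceptor with an inhibitory motif, had 244 to 592 CPM over EV lines and 73.1 to 92.5 CPM over BCR-ABL1 lines (-2.52, SE 0.20, FDR = 7.65e-06). Ms4a1, the CD20 gene, was lower by a log2 fold change of -6.19 at 0.332 to 10.7 CPM in EV and at most 0.17 CPM in BCR-ABL1 lines. Cd22, an inhibitory siglec, changed by -1.36 (FDR = 0.0345), a call that was lost in DESeq2, in mouse 2 lines alone and without EV 1A, 2A or 2B or BCR-ABL1 1A or 1C. Il7r, the IL7 receptor alpha chain and the remaining called gene, changed by -1.06. Btk, Cd79a and Syk had log2 fold changes of 0.03, 0.00 and -0.29 and were not called. The same 12 lines underlie the factors and these lists, so that a shared direction between them is a description.

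**Figure D4:**
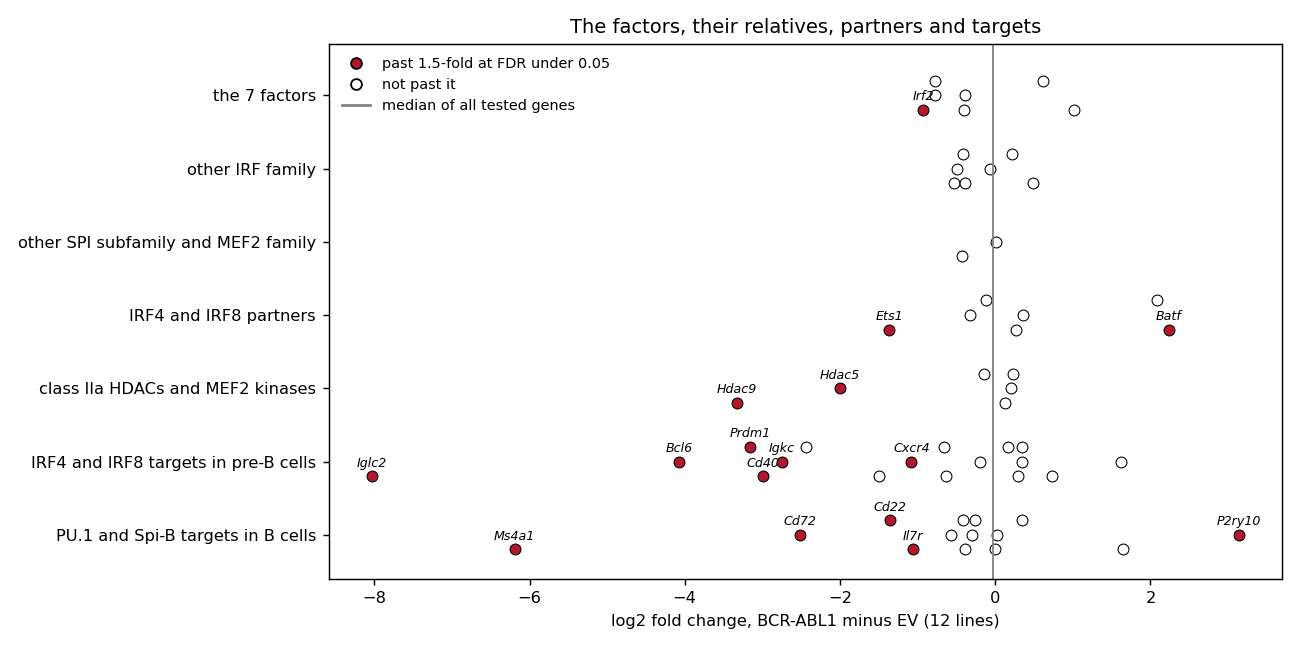
Log2 fold change, BCR-ABL1 minus EV over 12 lines (horizontal axis), of the 7 factors and of the tested genes of the related lists (rows), with filled points for genes past 1.5-fold at an FDR under 0.05 and a grey line at the median of all tested genes, -0.02. Most called genes lie to the left, such as Iglc2 at -8.03 and Hdac9 at -3.33, with Batf at 2.24 and P2ry10 at 3.14 to the right.

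The genes whose log2 CPM followed a factor most closely over the 12 lines are given as a description, since conditions and mice shape each correlation. For Irf4 they were Metap1d, Sh3kbp1 and Itga9 (Pearson's r of 0.99 each). Within the 6 BCR-ABL1 lines, where Irf4 hardly varied, r was 0.53, 0.23 and 0.29. For Irf8 they were Osbpl5, Aaed1 and Bckdha (r of 0.98 to 0.99), which kept r of 0.84 to 0.93 within BCR-ABL1 lines. Irf5 was followed by Ifnar2, a chain of the type I interferon receptor, Gimap1 and S100a10 (0.98 to 0.99), with r of at least 0.928 within either condition. For Irf2 the genes were Gm14966, 6430590A07Rik and Atf7ip (0.98 each), and for Spi1 they were Tbk1, a kinase that activates IRF3, with Gm35035 and AA414768 (0.96 each). Spib was followed by H2-T24, Prune1 and Tspan14 (0.96 to 0.98), of which H2-T24 had r = -0.08 within BCR-ABL1 lines. For Mef2c they were Dusp22, Kyat1 and Phka1 (0.98 each), with r of at least 0.955 in either condition.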

How the data were processed

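Total RNA of 12 lines was sequenced with a stranded kit. Per the labels, the authors deposited whole-number read counts per Ensembl gene, not normalized and not pooled. The submitters' processing notes name FastQC 0.11.5, Trimmomatic 0.36, TopHat2 2.1.1, Bowtie2 2.3.2, featureCounts 1.5.3 and the build GRCm38. The annotation release and strand setting are not given in the sources used here. Gene symbols, positions and lengths of exons come from the GRCm38 annotation GENCODE M21, which named 51633 of 51826 genes, and sequences from RefSeq.

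Counts were filtered with filterByExpr, scaled by TMM and compared in R 4.3.3 with edgeR 4.0.16. The main test was glmTreat on the quasi-likelihood fit against 1.5-fold, with Benjamini-Hochberg adjustment over 15038 genes and a threshold of 0.05. Its model held the condition and no term for the mouse, so differences between mice counted as spread between lines. Mouse as replicate block was an alternative. The study named a likelihood ratio fit, which was an alternative, as was DESeq2 1.42.0. The interaction between mouse and condition was tested by glmQLFTest. Log2 CPM used a prior count of 2, and standard errors come from its spread between lines. Single genes were also tested by exact permutation. Plots used matplotlib 3.10.9 (Python 3.11.15). The fits were tested on simulated counts.

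Total counts of 34791011 to 66011225 per line gave at least 272 reads for each of the 7 genes in every line. No lines of one mouse and condition had counts within sampling noise of each other, with chi-square per gene of 9.96 to 480.1.

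EV and BCR-ABL1 lines carry the same names, from 1A to 2C, in which the labels make the digit the mouse. Deviations from condition means correlated at 0.0853 to 0.240 for lines of the same mouse and at -0.203 to -0.0636 for different mice. After removal of mouse means, lines with the same letter correlated at -0.109 to 0.0856. Pairing by the mouse thus showed in these values, and pairing by the letter did not. The paper states that triplicates were prepared in independent experiments, and the sample names do not say whether a letter marks an experiment.

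The 7 genes, the lists of related genes and the alternatives were chosen with earlier results of these data known. In each list the called genes with the largest changes, up to 4, were named, and for each of the 7 genes the 3 most correlated genes among those whose average log2 CPM was at least 1. Other genes named in the lists, and the ratios of Irf4 to Irf8 and of Spi1 to Spib, were chosen after the values were seen.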

Additional observations from a re-analysis of the deposited data

Results flagged for a closer look

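The change between conditions differed between the lines of mouse 2 and mouse 1 for 3 of the 7 genes, beside 16.9% of all genes. The threshold was an FDR under 0.05 by the edgeR interaction of mouse and condition. Irf5 kept this call whichever line was left out. Irf8 lost it without each line except EV 2C, and Spi1 without each line except EV 2B and EV 2C. For Irf8 the log2 difference, mouse 2 minus mouse 1, was -0.86 (FDR = 0.0497), with a lower level in BCR-ABL1 lines of both mice. For Irf5 it was -2.06 (FDR = 3.47e-05), with EV lines at 14.7 ± 1.42 CPM in mouse 1 and 40.7 ± 8.79 CPM in mouse 2 (SD, n = 3 each). For Spi1 it was 1.63 (FDR = 0.0384), with EV lines at 27.4 ± 2.26 CPM in mouse 1 and 12.4 ± 8.51 CPM in mouse 2 (SD, n = 3 each). With 2 mice, a difference between mice and one between their cultures cannot be told apart. No line stood outside its condition by Dixon's test for any of the 7 genes. The test looks at 1 extreme line of a condition with both mice pooled. It can therefore miss lines that lie far out together, such as EV 2A and 2C for Spi1, and does not show that no line was unusual.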

How the results depend on the processing

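All 7 genes kept the sign of their change under every alternative over all 12 lines and under each omission of 1 line. In mouse 1 lines alone, Spi1 (-0.10) and Spib (0.17) had the opposite sign. Against no change, Irf4 (-0.77), Irf8 (-0.78), Irf5 (1.01) and Mef2c (-0.39) passed the threshold, and in mouse 1 lines Irf5 (2.20) did. Irf2 no longer passed without a gene filter (-0.88), in DESeq2 (-0.89), with line pair as replicate block (-0.91) and in mouse 2 lines (-0.80), and over omissions of 1 line its log2 fold change lay between -1.02 and -0.87. With mouse as replicate block, Irf2 (-0.92, FDR = 0.0371) stayed called and none of the other 6 genes was. The genes called higher were 1 against no change and 1 in mouse 1 lines, where 2512 of 15395 tested genes were. Those called lower were 4 against no change, and 0 without a gene filter, in DESeq2, with line pair as replicate block and in mouse 2 lines, and between 0 and 1 over omissions.

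The interaction for Irf8 lost its call with a filter of 1 CPM in 6 lines (-0.88). Over omissions it lay between -1.08 and -0.70 for Irf8, between -0.55 and -0.25 for Irf4, between 1.31 and 2.36 for Spi1, between -1.25 and -0.54 for Spib and between -0.20 and 0.03 for Mef2c, which turned without EV 2B (0.026). The permutation difference of Spi1 was past 0.05 only with TMM and labels exchanged over all lines (exact p = 0.0476). On total counts it was 0.75 (exact p = 0.123). With TMM and labels exchanged within a mouse it was 0.81 (exact p = 0.09).

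Among related lists, against no change the genes called lower were 4 for other IRFs, 1 for SPI and MEF2 genes and 2 for partners, and the genes called higher were 2 for partners, 1 for IRF4 and IRF8 targets and 2 for PU.1 targets. That test called 22.5% of all genes higher and 25.9% lower. With mouse as replicate block the genes called higher were 2 for partners, 1 for IRF4 and IRF8 targets and 2 for PU.1 targets, and with line pair as replicate block 2 for partners and 1 for IRF4 and IRF8 targets. Of all 15038 genes, 1126 were called higher with the mouse block and 923 with the line pair block. In mouse 1 lines the genes called higher were 1 for other IRFs, 4 for partners, 5 for IRF4 and IRF8 targets and 3 for PU.1 targets. Over all genes, 2512 of 15395 were called higher in mouse 1 lines, beside 901 of 15038 in the main test. In mouse 2 lines 2 partners were higher, and 1 of the deacetylase list and 2 PU.1 targets were lower. There 614 of 15400 genes were called higher and 408 lower. The likelihood ratio fit called 2 PU.1 targets higher, beside 1025 of 15038 genes. Over omissions 0 to 1 IRF4 and IRF8 targets and 1 to 2 PU.1 targets were higher. The causes were not tested. Each of the 7 genes had at least 272 reads in every line.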
